A study of Mus musculus with 10 samples.

Results

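The 35 genes described here mark the B cell lineage and its stages: transcription factors that make and keep B cells, the B cell receptor and the proteins that relay or damp its signal, and genes of naive, marginal zone, germinal center and activated B cells. They were taken by name as a list, drawn up with earlier results of these data known, and are 35 of the 17864 genes in the table of counts. The samples were tumors of 4T1, a mouse breast cancer cell line that serves as a model of triple-negative breast cancer. In 5 tumors the cells carried Cas9 and the control guide RNA sgCon. In the other 5 they carried Cas9 and the guide RNA sgTaz against Wwtr1, the gene of TAZ, which is a transcriptional co-activator controlled by the Hippo pathway. The question put to the B cell genes was how their RNA in the tumor differed, stage by stage, between sgCon and sgTaz tumors.

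In the methods, cells were injected into the fourth mammary fat pad of female mice aged 6 to 8 weeks. The labels do not name the host strain of the sequenced tumors, and the methods describe tumors in SCID mice and in BALB/c mice. SCID mice cannot rearrange antigen receptor genes and so lack mature B and T cells. Fcer2a, a gene of naive B cells, had 62 to 1193 counts in sgCon tumors and 0 to 326 in sgTaz tumors. RNA of T cell markers was also found in both groups, and what these values say of the host was not tested. Whether the guide was carried by a clone or a pool of cells is not given in the sources used here. The labels call the samples tumor cells, whereas RNA was taken from tumors without sorting, so that fewer B cells and less RNA per B cell cannot be told apart. The labels give each tumor a number from 1 to 5 and do not say whether each came from a separate mouse, and p-values measure the spread between these samples only.

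B cells are committed to their lineage by the transcription factors EBF1 and PAX5, which switch on the genes of the B cell receptor, an antibody anchored in the membrane beside the signalling chains CD79A and CD79B. Naive B cells carry CD23, encoded by Fcer2a, and marginal zone B cells carry much CD21, the complement receptor encoded by Cr2. After contact with antigen and help from T cells, activated B cells divide and mutate their antibody genes in germinal centers under the control of BCL6. In tumors, B cells are found as scattered cells and in aggregates that resemble the follicles of a lymph node.

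Levels are given as CPM, the counts of a gene per 1000000 counts of its tumor, with the library size scaled by TMM. Wwtr1, the targeted gene, had 192, 181, 115, 171 and 156 CPM in sgCon tumors 1 to 5 and 86.6, 104, 109.9, 139 and 102 CPM in sgTaz tumors 1 to 5. Its mean was 163 ± 30.2 CPM in sgCon and 108 ± 19.2 CPM in sgTaz tumors (SD, n = 5 each), with a log2 fold change of -0.59 (edgeR adjusted p = 0.096, DESeq2 adjusted p = 0.013), and the groups overlapped, as the level in sgTaz 4 was above that in sgCon 3. Total counts lay between 14753922 and 19595821 in sgCon and between 12185383 and 18395558 in sgTaz tumors.

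Most of the B cell genes had lower fitted levels in sgTaz than in sgCon tumors, but over all 10 tumors none of the differences passed the main test, and tumors of the same group differed widely. Of the 35 genes, 34 had enough counts to be tested, and Mef2b did not. The fitted fold change was below 0 on the log2 scale for 32 of the 34 and above 0 for Ly86 and S1pr2. The median log2 fold change of sgTaz against sgCon over the 34 genes was -1.74, beside -0.019 over all 14816 genes tested. By the quasi-likelihood test of edgeR with p-values adjusted over all genes, 0 of the 34 genes passed 0.05 as lower in sgTaz, and 0% of all genes did. In the other direction 0 of the 34 passed, beside 0.00675% of all genes. At an unadjusted edgeR p below 0.05, 22 of the 34 were lower, beside 11.9% of all genes, and 0 were higher, beside 9.86%.

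The number of B cell genes past the threshold depended on the tool and on a single tumor. DESeq2 called 5 of the 34 lower, beside 3.63% of all genes tested: Cd37, Blnk, Vpreb3, Tnfrsf13c and Tnfrsf13b. Limma-voom with sample quality weights called 18 of the 34 lower, beside 5.8% of all genes. In the other direction, DESeq2 called 0 of the 34 higher, beside 3.6% of all genes, and limma-voom 0, beside 4.63%. The tumor sgTaz 5 had the highest level of the sgTaz tumors for 31 of the 35 genes, beside 22.4% of all genes. Without it, edgeR called 15 of the 34 genes lower, beside 0.868% of all genes, and DESeq2 called 24, beside 4.72%. The median log2 fold change over the 34 genes was then -2.72. The tumor sgTaz 5 was singled out by its levels of these same genes, so leaving it out favors calls in this list. The shares over all genes were not selected in this way. The tumor sgCon 3 moved the values the other way, since it had the highest level of all 10 tumors for 32 of the 35 genes, beside 21.2% of all genes. Without sgCon 3 the median was -1.09, and 10 genes rather than 22 were lower at an unadjusted edgeR p below 0.05. The share of all genes at that threshold without sgCon 3 is not given here, so the drop is not particular to the list.

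**Figure D1:**
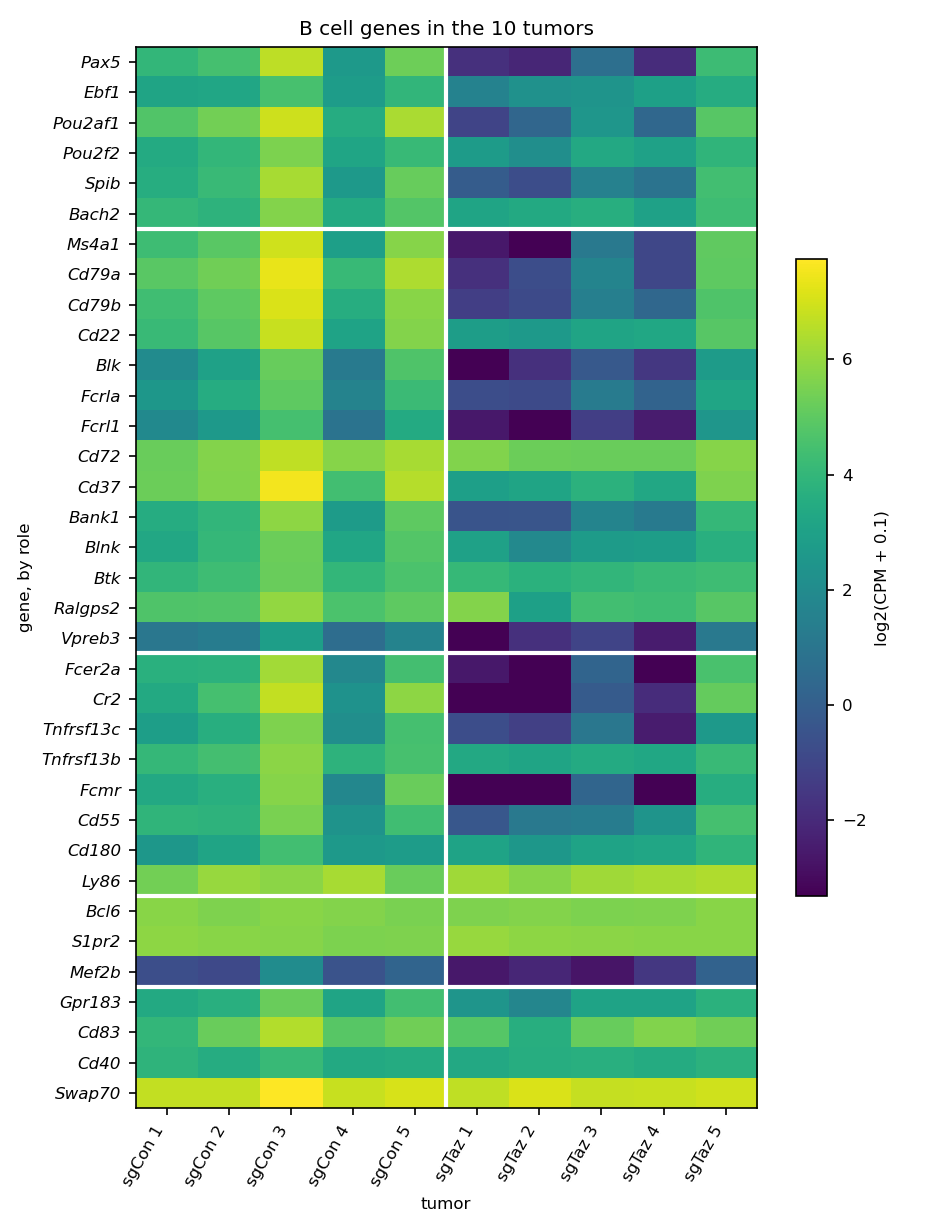
Level of each of the 35 genes in each of the 10 tumors, with tumors in columns, genes in rows by role, and color giving log2(CPM + 0.1). The column of sgCon 3 is high for 32 of the 35 genes, and sgTaz 1 to 4 are low for the genes made mainly by B cells. Of the sgTaz tumors, sgTaz 5 is the highest for 31 genes.

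No gene of the 35 was lower in every sgTaz tumor than in every sgCon tumor, a pattern that 2.13% of all tested genes had. The choice to set sgTaz 5 aside followed from its high levels of these same genes, so it favors such a pattern in this list. With sgTaz tumor 5 set aside, sgTaz tumors 1 to 4 lay below every sgCon tumor for 19 of the 34 tested genes. The share over all genes, not selected in this way, was 4.89%. These 19 genes were 3 of 6 lineage transcription factors, 10 of 14 genes of the receptor and its signalling, 5 of 8 naive and marginal zone genes, 0 of 2 germinal center genes and 1 of 4 genes of activated B cells.

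**Figure D2:**
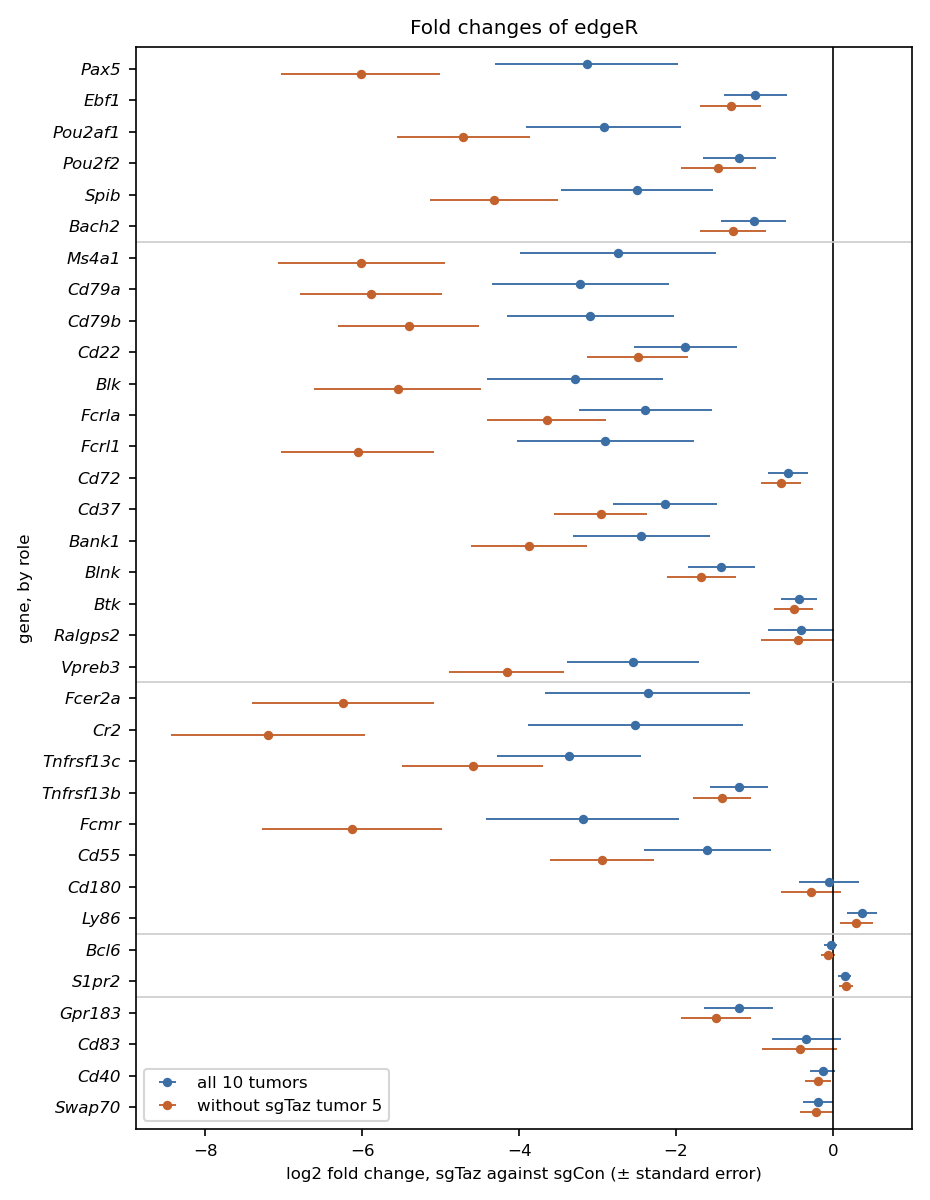
Log2 fold change of sgTaz against sgCon with its standard error for the 34 tested genes by role, from all 10 tumors and from the 9 tumors without sgTaz 5, in edgeR. The median moves from -1.74 to -2.72 when sgTaz 5 is left out, and genes of the receptor and of naive and marginal zone B cells move most, while Bcl6, S1pr2, Cd40 and Swap70 stay near 0.

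By textbook knowledge, the genes divide into those used mainly by B cells and those that other cells of a tumor also use. The former were Pax5, Pou2af1, Ms4a1, Cd79a, Cd79b, Cd22, Blk, Fcrla, Fcrl1, Bank1, Vpreb3, Fcer2a, Tnfrsf13c and Fcmr. For the 14 genes used mainly by B cells, the median log2 fold change was -2.91, with a range from -3.36 to -1.88, and it was -5.48 without sgTaz 5 and -2.25 without sgCon 3. For the 20 tested genes that other cells also use, it was -0.78, with -0.97 without sgTaz 5 and -0.43 without sgCon 3. The summed level of the 14 genes was 188, 278, 1094, 88.5 and 531 CPM in sgCon tumors 1 to 5 and 9.87, 10.1, 34.7, 16.8 and 249 CPM in sgTaz tumors 1 to 5. The 4 sgTaz tumors 1 to 4 lay below the lowest sgCon tumor, and sgTaz 5 lay between sgCon 1 and sgCon 2. The summed level of the other 21 genes was 521, 621, 1381, 526 and 796 CPM in sgCon tumors 1 to 5 and 504, 439, 488, 506 and 707 CPM in sgTaz tumors 1 to 5, with sgTaz tumors 1 to 4 below the lowest sgCon tumor by a small margin. Limma-voom called 13 of the 14 genes lower and 5 of the 20, beside 5.8% of all genes, and DESeq2 called 2 and 3, beside 3.63%.

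Sequence before transcription starts of the genes was read for matches to the motifs of factors that act in early B cells. Whether motifs have a part in the levels of the genes was not tested. The stretch searched was the 250 bases before each RefSeq transcription start in GRCm38.p6, and 36 such promoters were found for 30 of the 35 genes. The E-box of E2A, CAGGTG on either strand, was in 11 of the 36 promoters (30.6%), against 17.2% of all 32851 promoters, and in 6 of the 13 promoters of genes used mainly by B cells (46.2%). The octamer ATGCAAAT, read by the proteins of Pou2f2 and Pou2af1, was in 3 of the 36 (8.33%), those of Mef2b, Vpreb3 and Blnk, against 1.6% of all. The EBF palindrome, TCCC and GGGA at a distance of 2 bases, was in 1 of the 36 (2.78%), that of Cd22, against 0.779% of all. The searched stretches of Mef2b, Vpreb3, Blnk and Cd22 lie within the span of the gene in the GENCODE annotation, not before it. The core of the PU box, GAGGAA, was in 10 of the 36 (27.8%), against 23.3% of all. Each motif was searched on both strands and contains no other of the 4, and a match is a description of the sequence, not evidence of binding. No E-box was found for Pax5, Spib, Fcmr, Fcrl1 and Vpreb3, which were at or below 3.05 CPM in sgTaz tumors 1 to 4. Fcer2a, at 1.07 CPM or below in these tumors, had an E-box but is not shown. Of the other genes with an E-box, 4 also at or below 3.05 CPM in these tumors were picked. These were the B cell receptor chain Cd79a, the Fc receptor-like protein Fcrla, the complement receptor Cr2 and the BAFF receptor Tnfrsf13c. Their promoters are shown, with the E-box or its reverse complement in capitals. They lie at chr7:24897247-24897380 on the plus strand (Cd79a, from base -250 to -117 before the start) and, each from -250 to -1 on the minus strand, at chr1:170927584-170927833 (Fcrla), chr1:195176720-195176969 (Cr2) and chr15:82224381-82224630 (Tnfrsf13c).
Cd79a: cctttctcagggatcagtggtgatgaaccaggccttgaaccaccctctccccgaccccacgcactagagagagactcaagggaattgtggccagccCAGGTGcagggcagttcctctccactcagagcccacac
Fcrla: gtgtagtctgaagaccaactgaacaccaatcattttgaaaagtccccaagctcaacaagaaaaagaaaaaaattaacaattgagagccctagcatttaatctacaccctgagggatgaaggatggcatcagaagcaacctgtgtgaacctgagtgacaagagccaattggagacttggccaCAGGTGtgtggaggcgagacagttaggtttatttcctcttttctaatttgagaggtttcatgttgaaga
Cr2: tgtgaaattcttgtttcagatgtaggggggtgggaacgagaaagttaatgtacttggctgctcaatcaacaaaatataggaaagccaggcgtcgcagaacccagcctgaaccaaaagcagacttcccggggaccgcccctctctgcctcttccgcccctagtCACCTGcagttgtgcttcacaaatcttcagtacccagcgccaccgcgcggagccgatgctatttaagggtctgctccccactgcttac
Tnfrsf13c: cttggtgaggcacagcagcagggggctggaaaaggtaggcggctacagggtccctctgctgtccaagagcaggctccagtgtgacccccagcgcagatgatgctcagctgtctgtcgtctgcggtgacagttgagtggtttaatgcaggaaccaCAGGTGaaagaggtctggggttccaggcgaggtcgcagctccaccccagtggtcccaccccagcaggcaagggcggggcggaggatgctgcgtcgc
The E-box begins at base -154 of Cd79a, -69 of Fcrla, -88 of Cr2 and -96 of Tnfrsf13c.

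Among the lineage transcription factors, Pax5 was at 1.55 CPM or below in 4 of 5 sgTaz tumors and Pou2af1 at 1.21 CPM or below in 3, while Ebf1, Pou2f2 and Bach2, which other cells also use, had at least 2.93 CPM in each tumor. The 6 genes had a median log2 fold change of -1.84. It was -2.89 without sgTaz 5, -1.20 without sgCon 3 and -1.02 over the 3 with at least 10 counts in every tumor. Pou2af1, a co-activator of octamer factors that germinal centers need, had 26.8, 42.3, 121, 11.4 and 81.1 CPM in sgCon tumors 1 to 5 and 0.382, 1.16, 5.46, 1.21 and 29.2 CPM in sgTaz tumors 1 to 5. Its sgTaz tumors 1 to 4 lay below every sgCon tumor, and sgTaz 5 lay among the sgCon tumors. Its log2 fold change was -2.92 (SE 0.99, edgeR adjusted p = 0.14), and -4.71 without sgTaz 5 (edgeR adjusted p = 0.0424). Pax5, the factor that keeps cells in the B lineage, had 16, 22.4, 100.4, 6.16 and 38.9 CPM in sgCon tumors 1 to 5 and 0.191, 0.129, 1.55, 0.162 and 19.1 CPM in sgTaz tumors 1 to 5. The 4 low sgTaz tumors together held 36 counts of Pax5, and sgTaz 5 was above sgCon 1 and sgCon 4. The log2 fold change of Pax5 was -3.14 (SE 1.17, edgeR adjusted p = 0.163), and -6.02 without sgTaz 5 (edgeR adjusted p = 0.041).

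Bach2, a repressor that holds B cells back from becoming plasma cells and is also used by T cells, had 16.2, 14.2, 51, 10.8 and 27.5 CPM in sgCon tumors 1 to 5 and 8.66, 10.5, 12.2, 8.01 and 19.9 CPM in sgTaz tumors 1 to 5. The groups overlapped, with 3 sgTaz tumors below every sgCon tumor, and the log2 fold change was -1.01 (SE 0.41, edgeR adjusted p = 0.192). Spib, an ETS factor of B cells and plasmacytoid dendritic cells, lay between 6.27 and 78.8 CPM in sgCon tumors, between 0.517 and 2.79 CPM in sgTaz tumors 1 to 4 and at 21 CPM in sgTaz 5. Ebf1, which opens the B cell program and is also made by adipocytes and stromal cells, lay between 6.77 and 22.8 CPM in sgCon and between 2.93 and 11.4 CPM in sgTaz tumors. Pou2f2, the octamer factor OCT2, lay between 8.99 and 47 CPM in sgCon and between 4.33 and 15.1 CPM in sgTaz tumors. The 6 genes were lower at an unadjusted edgeR p below 0.05, beside 11.9% of all genes. Of them, Pax5, Pou2af1 and Spib passed the adjusted threshold of limma-voom (5.8% of all genes) and of edgeR without sgTaz 5 (0.868%). All 6 passed that of DESeq2 without sgTaz 5 (4.72%). Exons of Pax5 share 636 bases with 5730488B01Rik on the other strand, and those of Bach2 share 537 with Bach2os, so their counts are uncertain where strand was not used.

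The chains of the B cell receptor lay at 3.05 CPM or below in sgTaz tumors 1 to 4. Surface proteins did not behave alike. Ms4a1 and Fcrl1 were as low, at 2.14 and 0.321 CPM or below in these tumors. Cd22, Cd37 and Cd72 kept higher levels, and Cd37 and Cd72 are also used by other cells. The 14 genes of the receptor and its signalling had a median log2 fold change of -2.42. It was -3.76 without sgTaz 5, -1.83 without sgCon 3 and -1.43 over the 7 with at least 10 counts in every tumor. Cd79a, the signalling chain of the receptor, had 30.03, 40.3, 165, 17.2 and 82.1 CPM in sgCon tumors 1 to 5 and 0.191, 0.517, 3.05, 0.405 and 32.2 CPM in sgTaz tumors 1 to 5. In sgTaz 3 the level was several times that of the other low sgTaz tumors, and in sgTaz 5 it was above sgCon 1 and sgCon 4. For Cd79a the log2 fold change was -3.22 (SE 1.13, edgeR adjusted p = 0.148), and -5.89 without sgTaz 5 (edgeR adjusted p = 0.041). The partner chain Cd79b had a log2 fold change of -3.09 and lay at 2.68 CPM or below in sgTaz tumors 1 to 4, against at least 11.7 CPM in sgCon tumors. Scaled by exon length, the chains had the highest mean levels of the 35 genes in sgCon tumors, with 46 CPM per kb for Cd79a and 36.2 for Cd79b, ahead of 22.1 for Pou2af1 and 21.9 for Cd37.

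**Figure D3:**
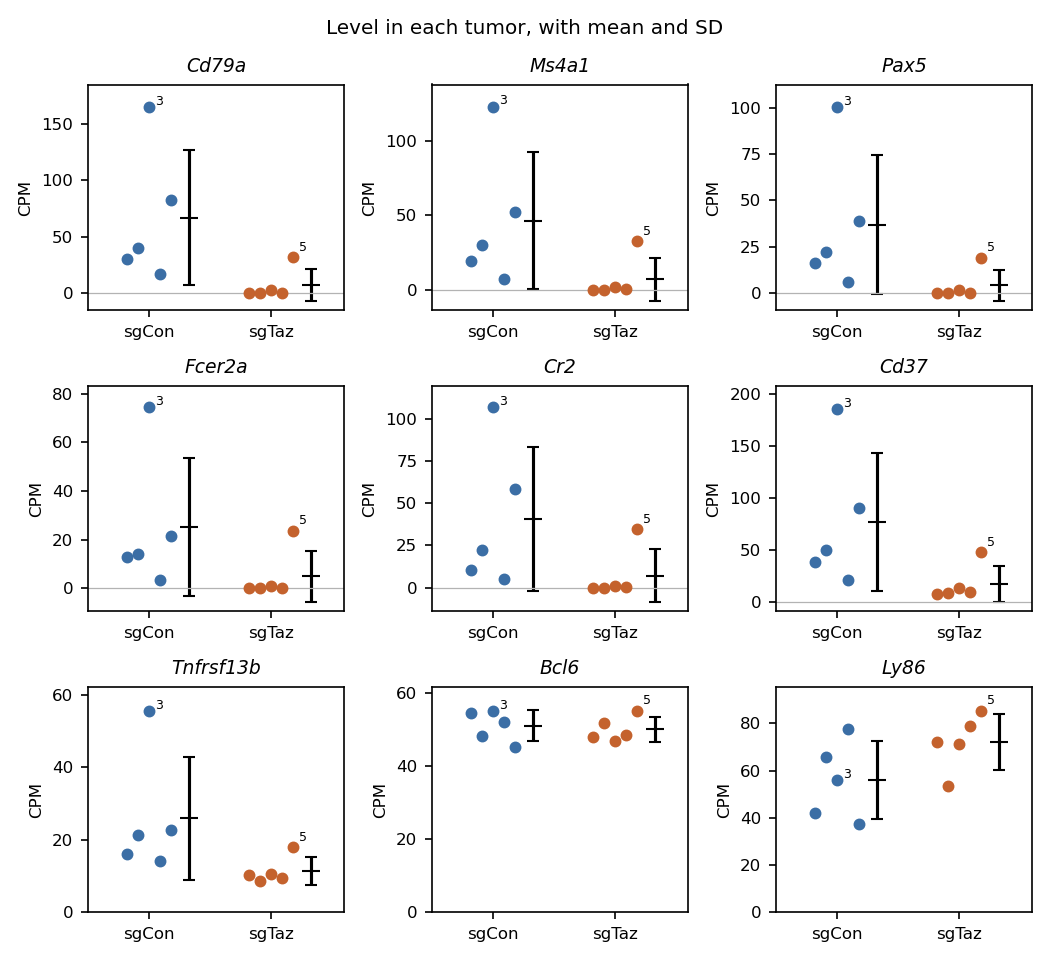
CPM of 9 genes in the 5 sgCon and 5 sgTaz tumors, with the mean and SD of each group as bars, and sgCon 3 and sgTaz 5 marked by their numbers. For Cd79a, Ms4a1, Pax5, Fcer2a and Cr2, sgTaz tumors 1 to 4 lie near 0 and sgTaz 5 among the sgCon tumors, while the groups overlap fully for Bcl6 and partly for Ly86.

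Ms4a1, which encodes CD20, was at 2.14 CPM or below in sgTaz tumors 1 to 4, with 0 counts in sgTaz 2, at 32.5 CPM in sgTaz 5 and between 7.38 and 123 CPM in sgCon tumors. Its log2 fold change was -2.74 (SE 1.25, edgeR adjusted p = 0.229), and -6.01 without sgTaz 5. Cd37, a tetraspanin of mature B cells that other leukocytes also carry, had 38.1, 50, 186, 20.9 and 90.5 CPM in sgCon tumors 1 to 5 and 7.51, 8.65, 13.7, 9.71 and 47.9 CPM in sgTaz tumors 1 to 5. Its sgTaz tumors 1 to 4 lay below every sgCon tumor, with sgTaz 5 between sgCon 1 and sgCon 2. The log2 fold change of Cd37 was -2.14 (SE 0.66, edgeR adjusted p = 0.12, DESeq2 adjusted p = 0.0437). Cd22, an inhibitory receptor that recruits phosphatases to the B cell receptor, kept between 6.07 and 9.55 CPM in sgTaz tumors 1 to 4, against 8.38 to 113 CPM in sgCon tumors. Cd22 was thereby the exception among the 14 genes used mainly by B cells, as sgTaz tumors 1 to 4 did not all lie below the sgCon tumors, and its exons share 479 bases with Gm29439 on the other strand.

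The kinase Blk, a SRC family member of B cells, lay between 2.16 and 35.5 CPM in sgCon tumors and at 0.75 CPM or below in sgTaz tumors 1 to 4, with a log2 fold change of -3.29. Fcrl1, an Fc receptor-like protein of the B cell surface, had 8 counts in sgTaz tumors 1 to 4 together, against 1.78 to 22.3 CPM in sgCon tumors. Fcrla, an intracellular member of the same family, lay between 0.452 and 2.36 CPM in sgTaz tumors 1 to 4 and between 3 and 31.8 CPM in sgCon tumors. These 3 genes had 0.142, 0.177 and 0.152 as adjusted p in edgeR, and with sgTaz 5 left out Blk and Fcrl1 passed and Fcrla, at 0.0515, did not.

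Among the proteins that relay the signal of the receptor, the fitted difference was larger for Blnk and Bank1 than for Btk, with no test between them. Blnk, which links the kinase SYK to later steps, had 9.73, 16.3, 38.5, 9.27 and 27.4 CPM in sgCon tumors 1 to 5 and 7.89, 3.62, 6.7, 7.04 and 12.5 CPM in sgTaz tumors 1 to 5. Its sgTaz tumors 1 to 4 lay below every sgCon tumor, by 7.89 against 9.27 CPM at the closest. The log2 fold change of Blnk was -1.42 (SE 0.43, edgeR adjusted p = 0.115), and DESeq2 gave the lowest adjusted p of the 34 tested genes, 0.0171. Bank1, a scaffold of B cells, lay between 6.66 and 58.4 CPM in sgCon tumors and between 0.636 and 3.11 CPM in sgTaz tumors 1 to 4, with 16.3 CPM in sgTaz 5. Btk, a kinase of the receptor that myeloid cells also use, lay between 15.4 and 36.9 CPM in sgCon and between 13.5 and 19.6 CPM in sgTaz tumors, with a log2 fold change of -0.43 (SE 0.23, edgeR adjusted p = 0.292). Ralgps2, an activator of RAL proteins, had its highest sgTaz level in sgTaz 1, at 50.9 CPM, and a log2 fold change of -0.40 (SE 0.42, edgeR adjusted p = 0.613).

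Vpreb3, a chaperone of B cell receptor assembly, was the member of this group with the lowest levels. It had 1.98, 2.4, 7.3, 1.44 and 3.01 CPM in sgCon tumors 1 to 5 and 0, 0.194, 0.375, 0.0809 and 2.11 CPM in sgTaz tumors 1 to 5. The 4 low sgTaz tumors held 11 counts together, and sgTaz 5 lay between sgCon 1 and sgCon 2. Its log2 fold change was -2.55 (SE 0.84, edgeR adjusted p = 0.133, DESeq2 adjusted p = 0.0446), and -4.16 without sgTaz 5. Cd72, a co-receptor that dampens the B cell receptor and is also on macrophages, had 36.5, 51.1, 103, 52.7 and 77.4 CPM in sgCon tumors 1 to 5 and 49.8, 38.7, 37.2, 36.5 and 52.9 CPM in sgTaz tumors 1 to 5. The groups overlapped, with the lowest of the 10 tumors being 1 sgTaz and 1 sgCon tumor at 36.5 CPM, and the log2 fold change was -0.57 (SE 0.25, edgeR adjusted p = 0.205). Exons of Cd72 share 1423 bases with Tesk1 on the other strand, the longest such stretch among the 35 genes. Over the 14 genes, 12 were lower at an unadjusted edgeR p below 0.05, beside 11.9% of all genes. After adjustment DESeq2 called 3 lower (3.63% of all genes) and limma-voom 10 (5.8%). Without sgTaz 5, edgeR called 8 (0.868%) and DESeq2 11 (4.72%).

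Of the genes of naive and marginal zone B cells, Cr2 and Fcer2a were at or near 0 in sgTaz tumors 1 to 4 and well above that in sgTaz 5. The 8 genes had a median log2 fold change of -1.98. It was -3.76 without sgTaz 5, -1.21 without sgCon 3 and -0.63 over the 4 with at least 10 counts in every tumor. Cr2, the complement receptor CD21 of marginal zone and follicular B cells and of follicular dendritic cells, had 10.3, 22.3, 107, 4.83 and 58.5 CPM in sgCon tumors 1 to 5 and 0, 0, 0.804, 0.162 and 34.9 CPM in sgTaz tumors 1 to 5. In sgTaz 1 and 2 no count of Cr2 was found, and sgTaz 5 was exceeded only by sgCon 3 and sgCon 5. Its log2 fold change was -2.52 (SE 1.37, edgeR adjusted p = 0.308), and -7.20 without sgTaz 5 (edgeR adjusted p = 0.041), the largest move among the 34 genes. Fcer2a, the IgE receptor CD23 of naive B cells, had 21 counts in sgTaz tumors 1 to 4 together, 23.7 CPM in sgTaz 5 and between 3.44 and 74.4 CPM in sgCon tumors. Only sgCon 3 exceeded sgTaz 5 for Fcer2a, and its log2 fold change was -2.36 (SE 1.31, edgeR adjusted p = 0.317), and -6.25 without sgTaz 5.

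Tnfrsf13c, the receptor for the survival factor BAFF on mature B cells, had 7.27, 12, 48.2, 4.39 and 22.3 CPM in sgCon tumors 1 to 5 and 0.509, 0.323, 1.98, 0.0809 and 6.26 CPM in sgTaz tumors 1 to 5. Its sgTaz tumors 1 to 4 lay below every sgCon tumor, and sgTaz 5 lay between sgCon 4 and sgCon 1. At -3.36 (SE 0.92), its log2 fold change was the lowest of the 34 genes, with the lowest edgeR adjusted p of them, 0.101, and a DESeq2 adjusted p of 0.0262. Tnfrsf13b, the receptor TACI for BAFF and APRIL on marginal zone and activated B cells, had 16.2, 21.3, 55.6, 14.2 and 22.6 CPM in sgCon tumors 1 to 5 and 10.2, 8.59, 10.7, 9.47 and 18 CPM in sgTaz tumors 1 to 5. The difference was smaller, with the highest of sgTaz tumors 1 to 4 at 10.7 CPM and the lowest sgCon tumor at 14.2 CPM, and sgTaz 5 again within the sgCon range. Its fold change on the log2 scale was -1.19 (SE 0.37, edgeR adjusted p = 0.119, DESeq2 adjusted p = 0.0219).

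Faim3, listed in the annotation as Fcmr, is the receptor for IgM, and it had 0 counts in sgTaz tumors 1, 2 and 4, 1.13 CPM in sgTaz 3, 11.7 CPM in sgTaz 5 and between 3.39 and 53.6 CPM in sgCon tumors. Cd55, a regulator of complement that many cells carry, lay between 5 and 45.3 CPM in sgCon tumors, and sgTaz 4, at 5.26 CPM, and sgTaz 5, at 22.5 CPM, reached into this range. Ly86 (MD-1) and Cd180 (RP105) form a receptor complex of B cells and myeloid cells, and they did not share the pattern of the other 6 genes. Ly86 had 42.2, 65.9, 56.1, 77.5 and 37.5 CPM in sgCon tumors 1 to 5 and 71.9, 53.5, 71.3, 78.8 and 85.3 CPM in sgTaz tumors 1 to 5. The groups overlapped, with sgTaz 5 the highest tumor and sgCon 5 the lowest, and the log2 fold change was 0.37 (SE 0.19, edgeR adjusted p = 0.292). Cd180 lay between 5.7 and 21.1 CPM in sgCon and between 5.75 and 14.8 CPM in sgTaz tumors, with a log2 fold change of -0.05 (SE 0.38, edgeR adjusted p = 0.952) whose sign turned with the processing. Over the 8 genes, 3 were lower at an unadjusted edgeR p below 0.05, beside 11.9% of all genes. After adjustment DESeq2 called 2 lower (3.63% of all genes) and limma-voom 5 (5.8%). Without sgTaz 5, edgeR called 4 (0.868%) and DESeq2 6 (4.72%).

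The germinal center genes with enough counts overlapped between the groups, and the third, Mef2b, had few counts. Bcl6, the repressor that directs the germinal center and is made by many other cells as well, had 54.6, 48.4, 55, 52.1 and 45.2 CPM in sgCon tumors 1 to 5 and 48.1, 51.9, 46.9, 48.6 and 55.2 CPM in sgTaz tumors 1 to 5. The groups overlapped fully, with means of 51.1 ± 4.2 CPM in sgCon and 50.1 ± 3.37 CPM in sgTaz tumors (SD, n = 5 each). The log2 fold change of Bcl6 was -0.027 (SE 0.08, edgeR adjusted p = 0.868). S1pr2, a sphingosine-1-phosphate receptor that keeps B cells in the germinal center and is also found on vessels and other cells, had 57.6, 53.9, 53.8, 47.7 and 48.7 CPM in sgCon tumors 1 to 5 and 64.7, 58, 57.2, 55.4 and 54.7 CPM in sgTaz tumors 1 to 5. The sgTaz tumors lay at the upper end of the sgCon range or above it, and the log2 fold change was 0.15 (SE 0.078, edgeR adjusted p = 0.291). The level of Bcl6 in sgCon 3 was within 1.05-fold of that in sgCon 4, and that of S1pr2 within 1.13-fold, whereas the genes used mainly by B cells differed 12.3-fold between these tumors at the median, and Mef2b 6.64-fold. Mef2b, a partner of BCL6 in germinal center B cells, had 9, 9, 65, 11 and 16 counts in sgCon tumors 1 to 5 and 1, 2, 1, 3 and 14 counts in sgTaz tumors 1 to 5. As for other B cell genes, sgCon 3 was highest and sgTaz tumors 1 to 4 lay below the sgCon tumors, but with these counts Mef2b entered no test, and 62 bases of its exons are shared with Borcs8 on the same strand.

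Of the genes of activated B cells, Gpr183 was lower in sgTaz tumors 1 to 4, and the other 3 overlapped between groups. The 4 genes had a median log2 fold change of -0.27, and 0.024 without sgCon 3. Gpr183 (EBI2), an oxysterol receptor that guides activated B cells to the edge of the follicle and is also used by T and dendritic cells, had 10.5, 12.4, 36.5, 8.77 and 21 CPM in sgCon tumors 1 to 5 and 5.35, 3.29, 8.36, 8.34 and 13.4 CPM in sgTaz tumors 1 to 5. The closest tumors of the groups, with sgTaz 5 set aside, were sgTaz 3 at 8.36 CPM and sgCon 4 at 8.77 CPM, and the log2 fold change was -1.20 (SE 0.44, edgeR adjusted p = 0.16). Cd83, a surface protein of activated B cells and mature dendritic cells, had 16, 36.7, 88.8, 29.4 and 41.1 CPM in sgCon tumors 1 to 5 and 27.9, 12.3, 36.4, 50.4 and 40.4 CPM in sgTaz tumors 1 to 5. Tumors of both groups were found at the low and the upper end, and the log2 fold change was -0.34 (SE 0.44, edgeR adjusted p = 0.677). Swap70, a protein of class switching and of cell movement in activated B cells that other cells make too, had 105, 105, 214, 114 and 134 CPM in sgCon tumors 1 to 5 and 104, 139, 109, 112 and 123 CPM in sgTaz tumors 1 to 5. Apart from sgCon 3 the tumors of both groups lay between 104 and 139 CPM, with a log2 fold change of -0.19 (SE 0.19, edgeR adjusted p = 0.574). Cd40, the receptor for help from T cells, lay between 10.4 and 17.4 CPM in sgCon and between 10.1 and 13.8 CPM in sgTaz tumors, with a log2 fold change of -0.13 (SE 0.16, edgeR adjusted p = 0.671). Without sgCon 3, the log2 fold changes of Cd83, Cd40 and Swap70 were above 0. Exon bases are also shared with a gene on the other strand by Swap70 (395), Cd180 (182), Cd55 (102), Bcl6 (21) and Cd37 (13), and with one on the same strand by Pou2f2 (35).

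Within the sgCon tumors, most of the B cell genes differed widely between tumors. The tumor sgCon 3 was above sgCon 4 by 7-fold at the median of the 34 tested genes, with a range from 0.724-fold for Ly86 to 22.2-fold for Cr2, whereas the median over all tested genes was 0.997-fold. The median was 12.3-fold for the genes used mainly by B cells and 3.43-fold for the others. By role it was 7.91-fold for the lineage transcription factors, 9.25-fold for the receptor and its signalling, 10.04-fold for naive and marginal zone genes, 1.09-fold for the germinal center genes Bcl6 and S1pr2 and 2.45-fold for activated B cell genes. Mef2b, which was not tested, was 6.64-fold higher in sgCon 3 than in sgCon 4. The tumor sgCon 4 was the lowest sgCon tumor for 27 of the 35 genes, beside 26% of all genes.

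To compare B cell genes with each other within a tumor, their levels were divided by that of Cd79a, in tumors with at least 30 counts of Cd79a, which were the 5 sgCon tumors, sgTaz 3 and sgTaz 5. In the sgCon tumors some ratios were nearly the same from tumor to tumor although the levels were not. They were 0.353 to 0.387 for Bank1, 0.242 to 0.297 for Tnfrsf13c and 0.666 to 0.847 for Cd79b, named after their values were seen. Other ratios varied more, such as 0.126 to 0.314 for Blk, 0.2 to 0.45 for Fcer2a and 0.197 to 0.445 for Fcmr. Of the 13 other genes used mainly by B cells, sgTaz 5 lay within the sgCon range for 6, above it for 6 and below it for 1. Above it were Ms4a1, at 1.01 against 0.429 to 0.742, Fcer2a, at 0.738 against 0.2 to 0.45, and Bank1, at 0.507. Cd22, at 0.9 against 0.487 to 0.728, and Fcrl1, at 0.174 against 0.103 to 0.156, were also above it. Fcrla was only just above it, at 0.283 against 0.174 to 0.28. Below it was Tnfrsf13c, at 0.195. Among genes that other cells also use, and chosen after their values were seen, Cr2 had a ratio of 1.08 in sgTaz 5 against 0.281 to 0.713, and Cd55 had 0.699 against 0.246 to 0.498. In sgTaz 3, with 57 counts of Cd79a, 7 of the 13 genes lay above the sgCon range, 6 within it and 0 below. Among them Tnfrsf13c, which was below the range in sgTaz 5, was above it at 0.649, Pou2af1 had 1.79 against 0.661 to 1.05, and Cd22 had 2.86 against 0.487 to 0.728. Cr2, which was above the range in sgTaz 5, was below it in sgTaz 3 at 0.263, and Cd55 was above it in both. These ratios compare single tumors and have no replicate check. Within a tumor they all share the same level of Cd79a, so they are not separate observations.

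**Figure D4:**
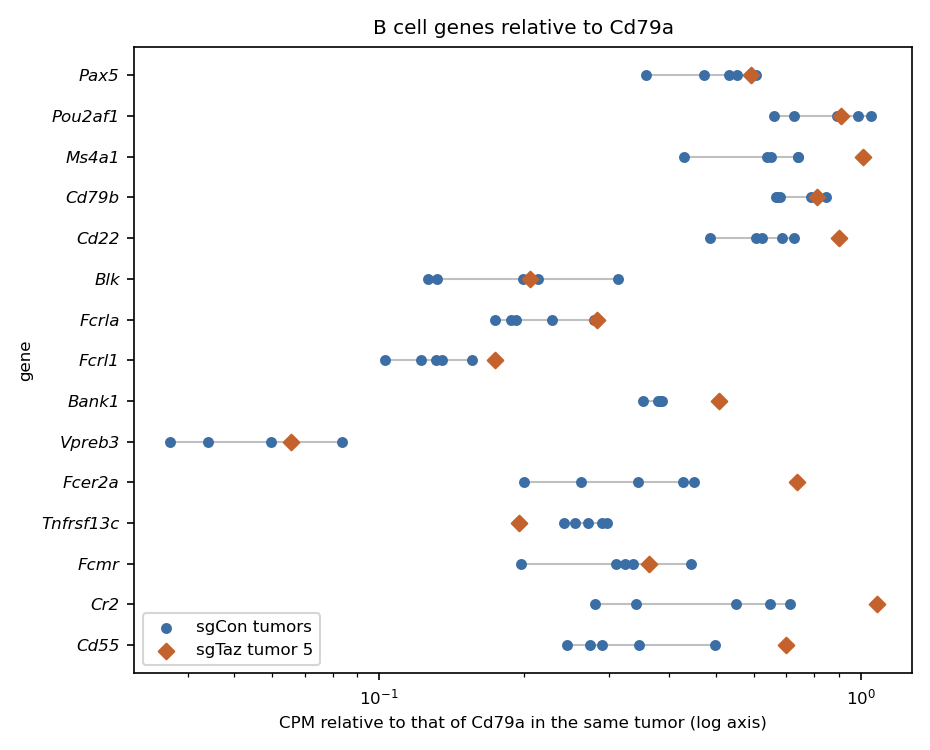
CPM of 15 B cell genes relative to that of Cd79a in the same tumor, on a log axis, for the 5 sgCon tumors (points joined by a line) and sgTaz tumor 5 (diamond). The diamond lies right of the sgCon points for Ms4a1, Cd22, Fcrla, Fcrl1, Bank1, Fcer2a, Cr2 and Cd55, left of them for Tnfrsf13c, and among them for the other 6 genes.

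A wider list of 72 further B cell genes with a row in the table was read beside the 35, and 66 of them were tested. Their median log2 fold change was -0.44, with -0.53 without sgTaz 5 and -0.23 without sgCon 3, and 48 were below 0 and 18 above. After adjustment edgeR called 0 lower and 0 higher, with 27 lower and 4 higher at an unadjusted p below 0.05, beside 11.9% and 9.86% of all genes. DESeq2 called 8 lower, beside 3.63% of all genes, and 0 higher, beside 3.6%. Limma-voom called 14 lower, beside 5.8%, and 4 higher, beside 4.63% (Fcgr2b, Cd38, Ciita and Zbtb20, named after their values were seen). The 7 homing receptors had log2 fold changes below 0, with a median of -1.75 and of -0.96 without sgCon 3, among them Cxcr5, the receptor that brings B cells into follicles, at -2.99.

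Germinal center effectors, plasma cell genes and ligands had medians nearer to 0 than the lineage transcription factors. The median log2 fold change of the 5 tested effectors was -0.55. Jchain, the joining chain of secreted IgM and IgA, had 318, 399, 514, 71 and 342 CPM in sgCon tumors 1 to 5 and 3.76, 25.4, 79, 18.7 and 131 CPM in sgTaz tumors 1 to 5. Of the 8 tested plasma cell genes, DESeq2 called 3 lower, beside 3.63% of all genes. These were Jchain, with a log2 fold change of -2.66 (DESeq2 adjusted p = 0.0277), Mzb1, a chaperone of antibody secretion, at -3.17, and Derl3. Over all 10 tumors edgeR called 0 of the 8 (edgeR adjusted p = 0.109 for Jchain and 0.096 for Mzb1). Of the same list, Prdm1 and Xbp1, the factors of antibody secretion that other cells also use, had log2 fold changes of 0.20 and 0.098. The survival factor BAFF, encoded by Tnfsf13b, had a mean of 10.2 ± 1.33 CPM in sgCon and 12 ± 5.94 CPM in sgTaz tumors (SD, n = 5 each), with overlap. Cxcl13, the chemokine that draws CXCR5-bearing B cells, lay at 2.41 CPM or below in sgTaz tumors 1 to 4, at 18.3 CPM in sgTaz 5 and between 2.5 and 39 CPM in sgCon tumors. The remaining roles had medians of -0.60 for 13 co-receptors and surface proteins, -0.34 for 16 signal relays, 0.18 for 5 ligands, -0.93 for 8 plasma cell genes, -0.67 for 2 early B cell genes and -0.072 for 10 other transcription factors.

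Marker genes of other cells moved with the B cell genes in some lists and not in others, and their part in the B cell result was not tested. The summed level of 8 T cell markers was between 88.9 and 700.3 CPM in sgCon tumors and between 57.5 and 181 CPM in sgTaz tumors, was highest in sgCon 3, and was 181 CPM in sgTaz 5 against 57.5 to 84.2 CPM in sgTaz 1 to 4. All 8 had a log2 fold change below 0, with a median of -1.61, and of -0.97 without sgCon 3. The sum of the 7 markers listed for lymph node stromal cells and high endothelium was between 72.2 and 776 CPM in sgCon tumors and between 35.3 and 455 CPM in sgTaz tumors, with the highest value of the 10 tumors in sgCon 3, 455 CPM in sgTaz 5, and 35.3 to 63.4 CPM in sgTaz 1 to 4. The 5 of these markers that were tested had a median log2 fold change of -1.18, with -5.41 without sgTaz 5 and -0.32 without sgCon 3. The 4 markers of plasmacytoid dendritic cells, which also use Spib, summed to 3.72 to 27.9 CPM in sgCon tumors, 2.07 to 7.55 CPM in sgTaz 1 to 4 and 32.6 CPM in sgTaz 5.

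Macrophage markers (8 genes) summed to 759 to 1787 CPM in sgCon and 1478 to 2068 CPM in sgTaz tumors, and all 8 had a log2 fold change above 0, like Ly86. Dendritic cell markers (6 genes) summed to 66.3 to 116 CPM and 92.7 to 134 CPM, and follicular dendritic cell markers (5 genes) to 994 to 1341 CPM and 873 to 1111 CPM. Neutrophil markers (6 genes) summed to 151 to 658 CPM and 46.6 to 230.4 CPM. Adipocyte markers (6 genes), of cells that also use Ebf1, summed to 5.3 to 38.2 CPM in sgCon and 2.86 to 108 CPM in sgTaz tumors. Epithelial markers of the tumor cells (6 genes) summed to 1881 to 3844 CPM and 1383 to 2867 CPM. No marker of these 9 lists was at 0 in every tumor.

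**Figure D5:**
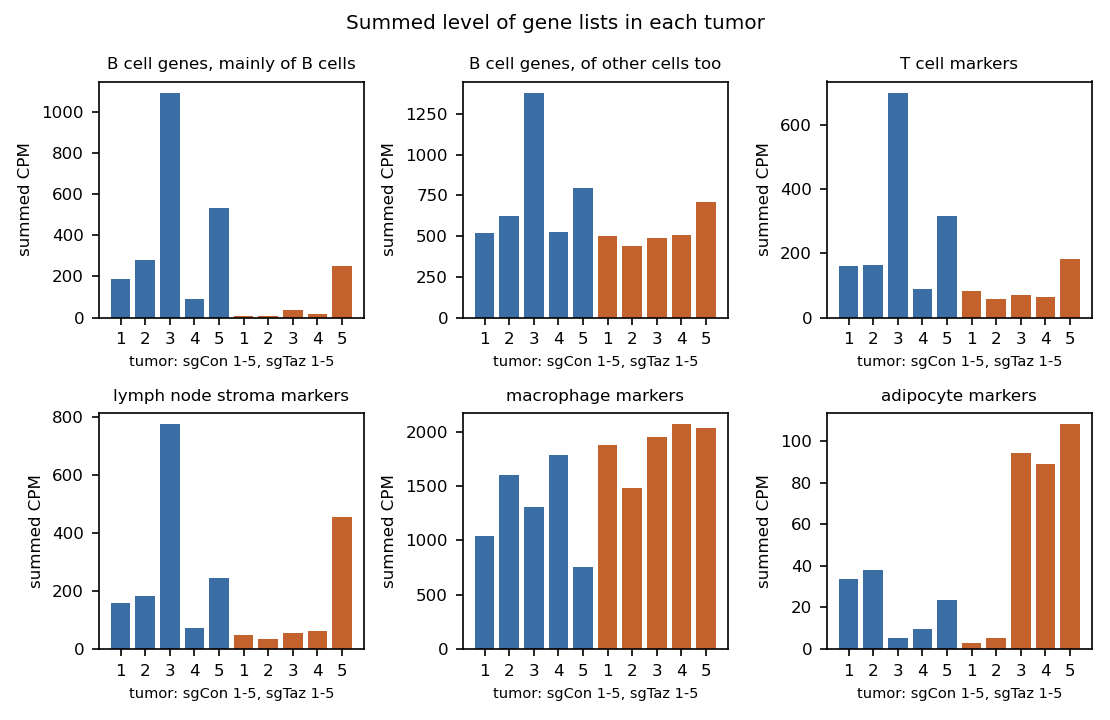
Bars of summed CPM in each of the 10 tumors, from 0, for 6 lists: the B cell genes used mainly by B cells, those that other cells also use, and markers of T cells, lymph node stroma, macrophages and adipocytes. The first 4 lists are highest in sgCon 3 and higher in sgTaz 5 than in sgTaz 1 to 4, while macrophage markers are not and adipocyte markers are highest in sgTaz 3 to 5.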

How the data were processed

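RNA of 5 sgCon and 5 sgTaz 4T1 tumors was sequenced by the authors, mapped to mm10 (GRCm38) with STAR in 2-pass mode and GENCODE annotation, checked with RSeQC and counted per gene with featureCounts of Subread. The deposited values are these counts, whole numbers without normalization. Tool versions and the strand setting are not given in the sources used here. Samples were grouped by their labels, and 5 columns of the table that match no sample were not used. Total counts were 14753922 to 19595821 per sgCon tumor (median 17155103) and 12185383 to 18395558 per sgTaz tumor (median 15566873). At this depth a gene with fewer than 10 counts in a tumor is known with a wide counting error.

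The 35 genes and the other lists were chosen with earlier results of these data known. Of 17864 identifiers, 17860 were matched to GENCODE M21, which gave names, exon lengths and shared exon bases. The counts were tested across all genes with edgeR 4.0.16 in R 4.3.3 (TMM, filterByExpr by group, which kept 14816 genes, glmQLFit and glmQLFTest, adjusted p below 0.05 by Benjamini-Hochberg over all genes). The standard error of a log2 fold change was the fold change divided by the root of the F statistic. Alternatives were DESeq2 1.42.0, limma 3.58.1 (voom with sample quality weights), normalization by RLE or by the upper quartile, the filter dropped or raised to 10 counts in each tumor, each tumor left out in turn and the replicate number as a block, and, chosen after seeing the data, DESeq2 without sgTaz tumor 5. The attention given to the edgeR fit without sgTaz 5 also came after the levels of that tumor were seen. The scripts were tested on simulated data. Within each group, no tumors agreed within sampling noise (lowest chi-square per degree of freedom 6.16).

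All 35 genes are named. Values in every tumor are given for the 3 of each role with the highest mean CPM and for those past the threshold in edgeR or DESeq2, and the rest by range. Some genes of the wider list are not reported here. No test was made over the list. Promoters came from RefSeq (GRCm38.p6), with 30 of the 35 genes matched, and Ms4a1, Cd79b, Blk, Cd83 and Cd40 not matched. Tables and figures were made in Python 3.11.15 with numpy 2.4.6, pandas 2.3.3 and matplotlib 3.10.9.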

Additional observations from a re-analysis of the deposited data

Results flagged for a closer look

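In 68 groups of 5 tumors, for each of the 34 tested genes in sgCon and in sgTaz tumors, the gap of the highest or lowest log2 CPM to its neighbor was set against the range of the group. The level of Cd22 in sgTaz tumor 5 was apart, at a log2 CPM of 4.86 against 2.63 to 3.27 in the other sgTaz tumors, with a gap of 0.712 of the range where 0.71 is the critical value. Chance alone gives about 1 in 20 such groups, or 3.4 of 68.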

How the results depend on the processing

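Calls of genes lower in sgTaz depended on the tool and on sgTaz tumor 5. Of the 34 tested genes, 0 were called by edgeR, 5 by DESeq2, 18 by limma-voom and 24 by DESeq2 without sgTaz 5, and with each tumor left out in turn edgeR called 0 to 15, the 15 without sgTaz 5. Of the 66 other B cell genes, these numbers were 0, 8, 14 and 25, and 0 to 5, the 5 without sgTaz 5. Of all genes, edgeR called 0%, DESeq2 3.63% and limma-voom 5.8% lower. Without sgTaz 5 the shares of all genes were 4.72% by DESeq2 and 0.868% by edgeR. That tumor was singled out by its levels of the 35 genes, so leaving it out can favor calls in both lists. Other B cell genes higher in sgTaz were 0 by edgeR (0.00675% of all genes) and 4 by limma-voom (4.63%). With a tumor left out, edgeR called 0 to 1 higher, and the share of all genes is not given here. The median log2 fold change of naive and marginal zone genes was -3.79 by DESeq2 without sgTaz 5 and -3.76 to -1.21 with a tumor left out. The median over the 34 genes was -2.72 to -1.09 with a tumor left out, and -0.79 with at least 10 counts in every tumor, where 20 were tested. The sign turned for Cd180 (limma-voom 0.23, replicate block 0.076, -0.28 to 0.45 with a tumor left out), Cd83 (limma-voom 0.088, -0.55 to 0.12), Bcl6 (-0.068 to 0.0048), Cd40 (-0.20 to 0.0043) and Swap70 (-0.27 to 0.044), with the last 3 positive without sgCon 3. Over 598 refits of single genes, 527 kept direction and side of the threshold, 62 passed it where the edgeR fit of all tumors did not, and 9 changed sign. Deviations of same-numbered tumors from their group means had r from -0.243 to 0.221 over 14816 genes. Each r rests on a single tumor per group, so it cannot decide whether equal numbers mark tumors that belong together. With the replicate block, 0 of the 34 genes were called lower, and the median was -1.86. Counts near 0 in sgTaz 1 to 4 limit how far low genes can be compared.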
